A study of Mus musculus with 2 samples.

Results

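The genes of the integrated stress response (ISR) and the unfolded protein response (UPR) were examined in primordial germ cells (PGCs) with and without over-expression (OE) of Klf9. The list held 41 genes by name, 32 in the ISR arm and 9 in the UPR arm. It was chosen for function, with earlier results of these data known. The first arm holds targets of the transcription factor ATF4, and the second holds endoplasmic reticulum (ER) chaperones with their regulators. Of the 41 genes, 40 were found by symbol in both files, among 23320 symbols that the files shared. The remaining gene, Pdia4, appeared only in a joint row with Mir704 and is described apart. Both libraries came from E13.5 mouse PGCs, which were sorted for intense GFP from genital ridges of male and female embryos, the offspring of MCH females and of Oct4-deltaPE-GFP males on a C57BL/6J background. The cells were infected at MOI 5 with a control lentivirus or with a lentivirus that expressed the coding region of Klf9 from a CSII-EF vector, and were cultured for 1 day on gelatin. The labels say that bFGF was in the medium of both cultures, whereas the study's own text says that it was left out. Each condition had 1 library, so no difference below has a replicate check or a test, and "higher" and "lower" compare these 2 libraries only.

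The ISR begins when a kinase phosphorylates the translation factor eIF2. General protein synthesis then slows, while the mRNA of Atf4 is translated more efficiently, and ATF4 protein turns on genes for amino acid supply, tRNA charging and redox balance as well as genes that end the response or lead to cell death. The UPR answers unfolded protein in the ER through the sensors PERK (encoded by Eif2ak3), IRE1 and ATF6. PERK feeds into the ISR, IRE1 splices the mRNA of Xbp1, and XBP1 and ATF6 induce chaperones. Much of this control acts on translation, splicing and protein cleavage, which the mRNA levels reported here do not measure.

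Expression is given as RPKM, which scales reads to transcript length and library size, each value with the 95% interval that Cufflinks set around it. The interval covers the estimate within 1 library and not the spread between cultures. If the interval reflects read counting alone, the number of reads behind a value is the square of 2 times the RPKM over the half-width. This did not hold for every gene. For Gars, with the same RPKM and locus bounds in both libraries, it gave 1823 reads in control and 9747 in Klf9-OE PGCs. The medians over members with a mean RPKM of at least 1 were 936 and 1182. Calls of intervals apart carry this limit. Where the estimate gave 1 to 9 reads within 0.06 of a whole number, the reads were even at 36.1% of 2197 named loci in control and at 87.2% of 1835 in Klf9-OE PGCs, and the part of this difference in the intervals was not tested. Differences are log2(RPKM + 0.1) in Klf9-OE PGCs minus the same in control PGCs, a scale that understates the difference of genes with low RPKM. The RPKM of Klf9, which the vector carried, was 2.27 in control and 80.8 in Klf9-OE PGCs. The assembled locus of Klf9 was longer in the control library, and the vector held only the coding region. The part of this in its values was not tested. Germ cell markers were abundant in both libraries, with Sycp3 highest at an RPKM of 541 in control and 557 in Klf9-OE PGCs. Of 14 germ cell markers, 9 (64.3%) were lower in Klf9-OE PGCs with intervals that did not overlap, against 20.2% of all genes with a mean RPKM of at least 1. By the same measure 1 (7.14%) was higher, against 14.5%. The median log2 difference of the 14 was -0.25. Of 11 gonad somatic markers with a mean RPKM of at least 1, 7 (63.6%) were higher with intervals that did not overlap, against 14.5%, and 1 (9.09%), Sox9, was lower, against 20.2%. The summed RPKM of the 15 somatic markers found was 40.9 in control and 55.7 in Klf9-OE PGCs. Star, which is among the 7, was listed at 0 in control, and Tcf21 was listed at 0 in Klf9-OE PGCs. The highest somatic marker in both libraries was Col1a1, at an RPKM of 9.09 and 12.5. The summed RPKM of 6 endothelial markers was 5.10 in control and 7.95 in Klf9-OE PGCs, led by Cdh5 in both, with Emcn listed at 0 in Klf9-OE PGCs. That of 7 macrophage markers was 4.86 and 5.72, led by Cd68 in both. Only 4 of 8 erythroid markers were found under their own symbols, with a summed RPKM of 0.862 and 0.714, led by Alas2 in both. The joint rows Hba-a1,Hba-a2 were at a summed RPKM of 36.6 in control and 7.30 in Klf9-OE PGCs, and the joint row Hbb-b1,Hbb-bs was at an RPKM of 16.4 in control and 3.997 in Klf9-OE PGCs. The part of these shifts in the values below was not tested, and in bulk RNA fewer cells of a type cannot be told apart from less RNA per cell.

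Short DNA elements are known for both arms, and RefSeq promoter sequences (GRCm38.p6, the assembly of mm10) were available for 35 of the 41 genes. Each promoter covered 250 bases before the start site and 50 bases after it, and both strands were searched. The C/EBP-ATF response element (CARE), bound by ATF4 with a C/EBP partner, was searched as TGATGNAA. The ER stress element (ERSE), bound by ATF6 with NF-Y, was searched as CCAAT followed by CCACG after 9 bases of any kind. A shorter form, ERSE-II, was searched as ATTGG followed by CCACG after 1 base of any kind, and the XBP1 element UPRE as TGACGTGG. No letters of one element overlapped another in the members. CARE letters were present in 9 of 26 ISR promoters and in 1 of 9 UPR promoters, that of Herpud1, and in 4.51% of the 27025 genes with a promoter. ERSE letters were present in 3 of 9 UPR promoters, none of 26 ISR promoters and 0.137% of all genes. ERSE-II letters were present in 1 UPR promoter and 0.0444% of all genes, and UPRE letters in no member and 0.714% of all genes. A match describes letters in this window and is not evidence of binding. The windows below are read 5′ to 3′ on the strand of the gene, with the matched letters in capitals. They show all ERSE and ERSE-II matches among the members and, for the ISR arm, a chosen part of the CARE matches, from genes that were higher, lower or level between the libraries. Chac1 is shown although its mean RPKM was under 1 and its intervals overlapped. Upstream CARE matches of Aars, Fgf21 and Vldlr and another one of Slc7a11 are not shown.
Hspa5, ERSE, chr2:34772009-34772059 (plus strand): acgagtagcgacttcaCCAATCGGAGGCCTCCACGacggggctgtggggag
Hsp90b1, ERSE farther from the start, chr10:86705622-86705672 (minus strand): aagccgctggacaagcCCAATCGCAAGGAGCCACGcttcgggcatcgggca
Hsp90b1, ERSE nearer the start, in reverse, chr10:86705517-86705567 (minus strand): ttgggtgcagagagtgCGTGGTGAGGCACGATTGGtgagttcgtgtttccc
Creld2, ERSE in reverse, chr15:88819504-88819554 (plus strand): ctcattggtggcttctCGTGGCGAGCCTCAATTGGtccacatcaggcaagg
Herpud1, ERSE-II, chr8:94386361-94386403 (plus strand): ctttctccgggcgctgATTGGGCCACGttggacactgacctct
Atf3, CARE in reverse, chr1:191183420-191183459 (minus strand): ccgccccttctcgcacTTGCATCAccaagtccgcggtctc
Chac1, CARE in reverse, chr2:119351033-119351072 (plus strand): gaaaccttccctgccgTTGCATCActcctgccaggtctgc
Asns, CARE, chr6:7693210-7693248 (minus strand): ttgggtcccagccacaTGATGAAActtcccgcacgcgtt
Slc7a11, CARE, chr3:50443656-50443695 (minus strand): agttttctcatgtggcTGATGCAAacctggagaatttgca
Gars, CARE in reverse, chr6:55037955-55037994 (plus strand): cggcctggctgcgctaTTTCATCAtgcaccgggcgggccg

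Most genes of both arms were expressed at similar levels in control and Klf9-OE PGCs. A mean RPKM of at least 1 over both libraries was reached by 33 of the 40 genes, 25 of the ISR arm and all 8 of the UPR arm that were found. Another 4 genes were measured below this level, and 3 were listed at 0 in both libraries. Of the 33 genes, 30 had a log2 difference within 0.5 of 0, as had 82.8% of the 12249 symbols with a mean RPKM of at least 1. In the ISR arm, 2 of 25 genes (8%), Atf3 and Stc2, exceeded the control by 1.5-fold or more in Klf9-OE PGCs, against 6.67% of all genes, and 1 (4%), Ddit4, was lower by as much, against 7.79%. No gene of the UPR arm was past 1.5-fold in either direction. Among genes with a mean RPKM of at least 5, the shares of all genes were 3.99% higher and 5.6% lower, and Ddit4 was then the only member past 1.5-fold. The median log2 difference was 0.04 in the ISR arm and -0.01 in the UPR arm, against -0.03 over all genes.

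**Figure D1:**
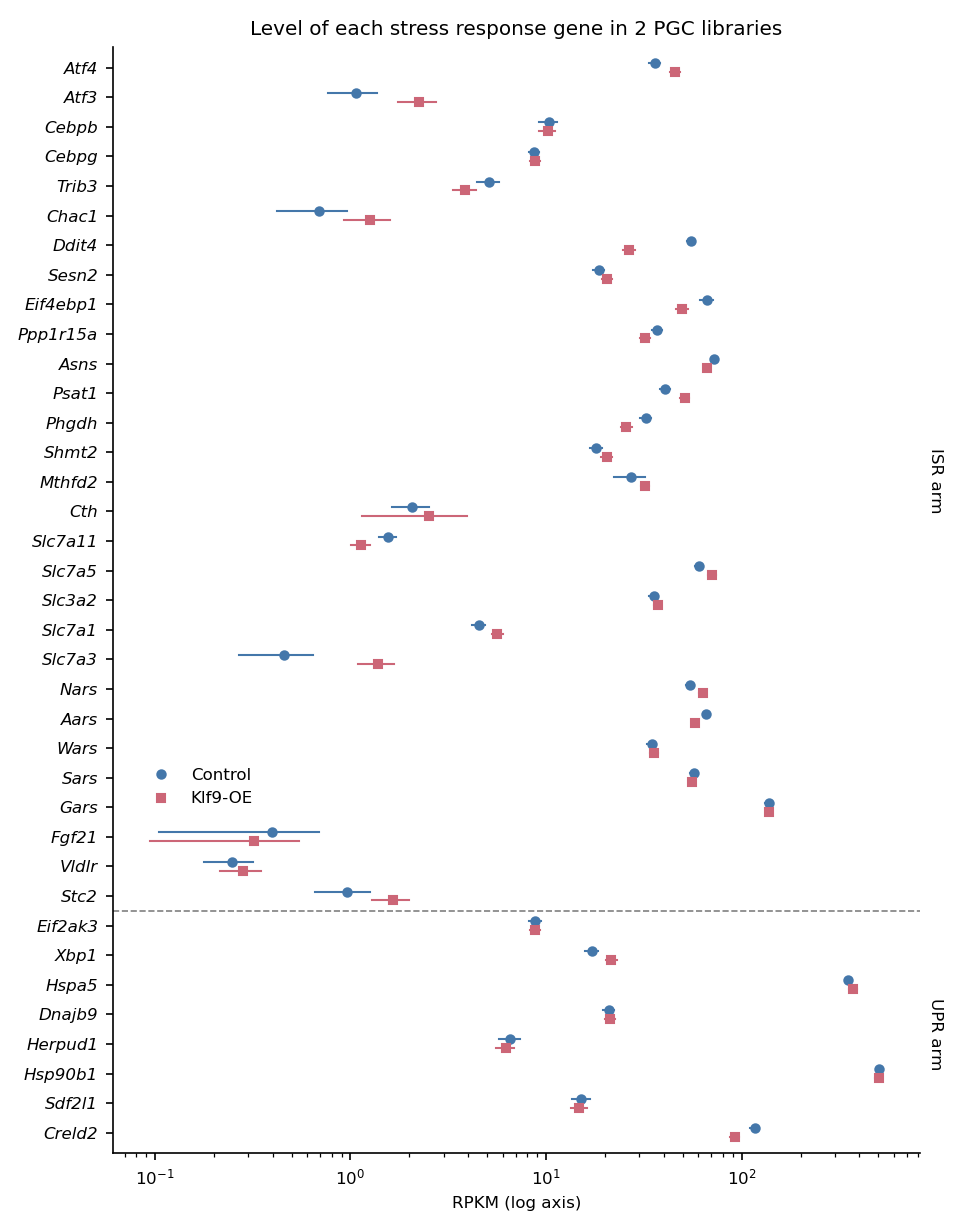
RPKM (log axis) of the 37 genes above 0, with control as blue circles, Klf9-OE as red squares and horizontal lines for the Cufflinks 95% interval of each library. Most pairs of points lie close together from under 1 to 505 RPKM, while the pairs of Ddit4, Atf3 and Slc7a3 stand apart.

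Of the 25 ISR genes, 7 were higher in Klf9-OE PGCs with Cufflinks intervals apart (28%), against 14.5% of all genes, and 8 were lower with intervals apart (32%), against 20.2% of all genes. With the half-widths of Klf9-OE PGCs multiplied by the square root of 2, 6 higher and 6 lower ISR genes had intervals apart. The share of all genes was then 16.8% for the lower side and is not given for the higher, so the 6 higher genes are not read as a result. With a mean RPKM of at least 5 required, fewer than the 25 ISR genes remained. Of these, 5 higher and 6 lower genes had intervals apart, against 14.5% and 22.1% of all genes. In the UPR arm the intervals were apart for 1 higher and 1 lower gene of 8. Interval width depends in part on the number of reads, and the median control RPKM was 34.7 for the 25 ISR genes and 12.2 for all genes. The half-width of the interval was 6.54% of the RPKM in the median member in control PGCs and 5.82% in Klf9-OE PGCs. The differences of the UPR arm lay in a narrow range, with quartiles of -0.05 and 0.04. Those of the ISR arm had quartiles of -0.20 and 0.24, and those of all genes -0.20 and 0.14.

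**Figure D2:**
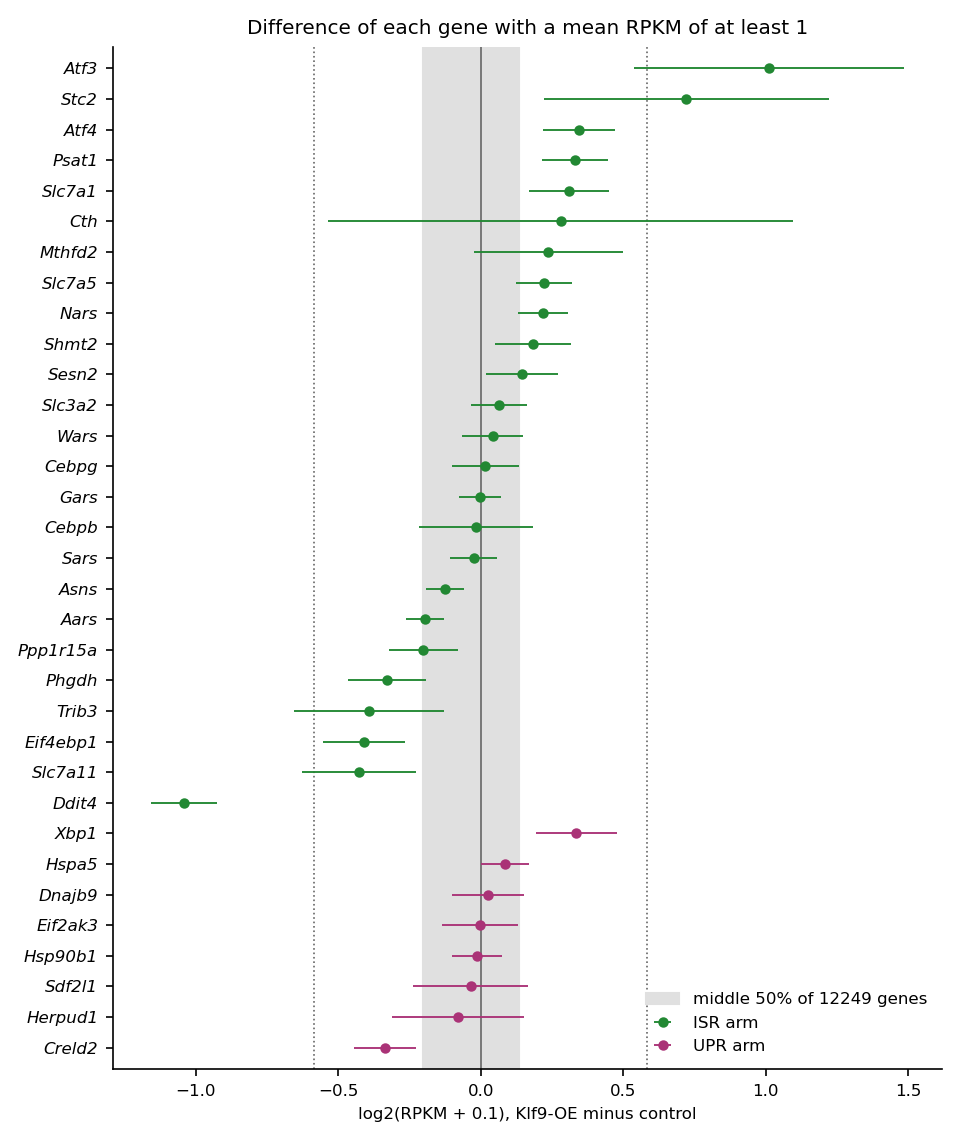
Log2 difference of the 33 genes with a mean RPKM of at least 1, in order within each arm, with lines for the Cufflinks intervals of both libraries combined. The grey band holds the middle 50% of all genes (-0.20 to 0.14) and dotted lines mark 1.5-fold. Ddit4 lies farthest to the left at -1.04, and 6 of the 8 UPR genes lie inside it.

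Among the transcription factors of the ISR, Atf4 was higher in Klf9-OE PGCs. Atf4 (chr15:80255184-80257545) had an RPKM of 36.0 in control PGCs (33.5 to 38.4) and 45.7 in Klf9-OE PGCs (43.1 to 48.3), with a ratio of 1.27 with intervals apart. As many as 27.1% of all genes had a log2 difference at least as far from 0 as that of Atf4. Atf3, a stress-induced factor downstream of ATF4 (chr1:191170297-191183333), was low in both libraries. It had an RPKM of 1.07 in control PGCs (0.770 to 1.36) and 2.25 in Klf9-OE PGCs (1.76 to 2.74), with a ratio of 2.11, and 6.25% of all genes had a log2 difference at least as far from 0. The C/EBP partners of ATF4 were level. Cebpb had an RPKM of 10.3 in control and 10.2 in Klf9-OE PGCs, and Cebpg had 8.70 and 8.80. The intervals of both overlapped.

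The other two transcription factors, Ddit3 and Atf5, could not be compared. Ddit3 encodes CHOP, which promotes cell death under lasting stress, and Atf5 is a further ATF4 target. Both were listed at 0 in both libraries, as was Psph, which encodes the last enzyme of serine synthesis. So were 4578 of the 23320 symbols (19.6%), among them Cox20, a gene that nearly all cells use, which was picked for mention after its values were seen. A listed 0 can therefore be a failed estimate and was not read as lack of expression. Ddit3 (chr10:127290793-127296288) overlaps Mars, which had an RPKM of 82.1 in control and 77.0 in Klf9-OE PGCs. Atf5 (chr7:44812256-44816658) overlaps the joint row Il4i1,Nup62,Nup62-il4i1, at 140 in control and 125 in Klf9-OE PGCs. Inside the bounds of Ddit3, Cufflinks assembled 3 unnamed loci in the control library and 5 in the Klf9-OE library. None of the former and 2 of the latter overlapped an exon of Ddit3 in the GENCODE annotation.

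Among genes that restrain growth or end the response, only Ddit4 was past 1.5-fold. Ddit4 (chr10:59949675-59951770) encodes REDD1, an inhibitor of the growth kinase complex mTORC1. Its RPKM was 55.0 in control PGCs (52.6 to 57.3) and 26.6 in Klf9-OE PGCs (24.8 to 28.5), 2.06-fold lower. The intervals were far apart, and 5.96% of all genes had a log2 difference at least as far from 0 as its -1.04.

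Eif4ebp1 encodes 4E-BP1, a repressor of cap-dependent translation that mTORC1 switches off. It had an RPKM of 66.2 in control (61.4 to 71.0) and 49.8 in Klf9-OE PGCs (46.3 to 53.3), 1.33-fold lower. Trib3, a pseudokinase that dampens ATF4 activity, had 5.09 in control (4.45 to 5.73) and 3.86 in Klf9-OE PGCs (3.32 to 4.39), 1.32-fold lower. For Eif4ebp1 and Trib3, 22.2% and 23.5% of all genes had a log2 difference at least as far from 0. The assembled locus of Eif4ebp1 was longer in the control library and that of Trib3 longer in the Klf9-OE library. RPKM depends on transcript length, and the part of these bounds in the values was not tested. Ppp1r15a encodes GADD34, which brings a phosphatase to eIF2 and so ends the response. It had an RPKM of 36.9 in control (34.7 to 39.1) and 32.1 in Klf9-OE PGCs (30.2 to 34.0), 1.15-fold lower.

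The intervals of Ddit4, Eif4ebp1, Trib3 and Ppp1r15a were apart, so 4 of the 5 effectors with a mean RPKM of at least 1 were lower with intervals apart, against 20.2% of all genes. With the half-widths of Klf9-OE PGCs multiplied by the square root of 2, those of Trib3 and Ppp1r15a overlapped, which left 2 of 5, against 16.8% of all genes. The median log2 difference of the 5 was -0.39. The fifth, Sesn2, encodes a leucine sensor that also restrains mTORC1, and had an RPKM of 18.5 in control (17.3 to 19.8) and 20.5 in Klf9-OE PGCs (19.3 to 21.8). Chac1, which degrades glutathione, was higher but low in both libraries, at 0.691 in control (0.419 to 0.963) and 1.26 in Klf9-OE PGCs (0.926 to 1.601). Its intervals overlapped although the ratio was 1.83.

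**Figure D3:**
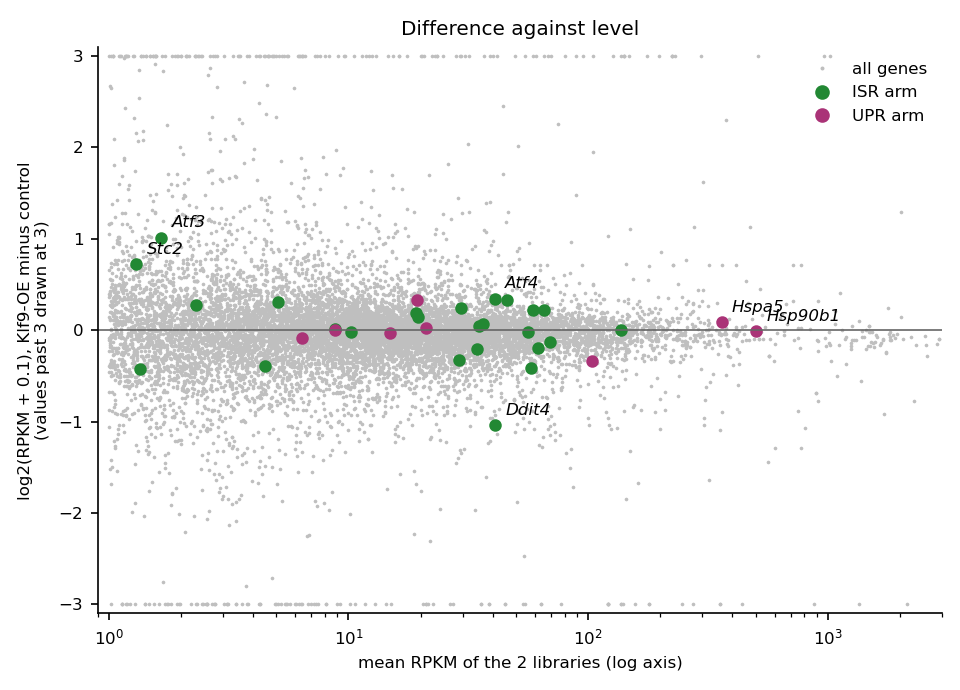
Log2 difference against mean RPKM (log axis) for all 12249 genes with a mean of at least 1 (grey) and for the ISR (green) and UPR (purple) genes, with values past 3 drawn at 3. Atf3 and Stc2 lie at low RPKM, where the grey cloud is wide, and Ddit4 lies at -1.04 at a higher RPKM.

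The enzymes of serine and one-carbon metabolism differed in both directions by less than 1.5-fold. Phgdh, the first enzyme of serine synthesis, had an RPKM of 32.4 in control (30.2 to 34.5) and 25.7 in Klf9-OE PGCs (24.0 to 27.5), 1.26-fold lower with intervals apart. Psat1, the second enzyme of the same pathway, had 40.7 in control (38.3 to 43.1) and 51.2 in Klf9-OE PGCs (48.5 to 54.0), 1.26-fold higher with intervals apart. Neighbouring steps of 1 pathway thus differed in opposite directions between the libraries. For Phgdh and Psat1, 28.6% and 28.5% of all genes had a log2 difference at least as far from 0.

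Asns, asparagine synthetase and a much used readout of ATF4, had an RPKM of 72.3 in control (69.8 to 74.8) and 66.3 in Klf9-OE PGCs (64.2 to 68.4), 1.09-fold lower with intervals just apart. The mitochondrial one-carbon enzymes Shmt2 and Mthfd2 had 18.0 and 27.1 in control and 20.4 and 32.0 in Klf9-OE PGCs, with overlapping intervals. The control interval of Mthfd2 was wide (22.4 to 31.9). Its assembled locus was longer in the control library, and the part of this in its values was not tested. Cth, which makes cysteine from cystathionine, had 2.07 in control (1.63 to 2.51) and 2.53 in Klf9-OE PGCs (1.14 to 3.93), an interval too wide to place it.

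The amino acid transporters also split. Slc7a5 and Slc3a2 encode the light and heavy chain of the LAT1 exchanger for large neutral amino acids. Slc7a5 had an RPKM of 60.7 in control (57.7 to 63.7) and 70.8 in Klf9-OE PGCs (67.5 to 74.2), 1.17-fold higher with intervals apart, and Slc3a2 had 35.5 and 37.2 with overlapping intervals. Slc7a11, the light chain of the cystine importer, had 1.56 in control (1.40 to 1.71) and 1.13 in Klf9-OE PGCs (1.01 to 1.26), 1.38-fold lower with intervals apart.

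The cationic amino acid transporters were higher in Klf9-OE PGCs. Slc7a1 had an RPKM of 4.53 in control (4.18 to 4.88) and 5.64 in Klf9-OE PGCs (5.28 to 5.99), with a ratio of 1.24. Slc7a3 (chrX:101079210-101085405) had 0.455 in control (0.269 to 0.642) and 1.38 in Klf9-OE PGCs (1.09 to 1.66), with a ratio of 3.03. The intervals of both were apart. Slc7a3 had the highest ratio among the members, yet its mean RPKM was under 1, so it was not in the counts above.

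Aminoacyl-tRNA synthetases, which charge tRNAs with amino acids, were well expressed and close to level. Gars had the highest RPKM of the ISR arm, at 137 in both libraries. Nars had 54.5 in control (52.0 to 56.9) and 63.4 in Klf9-OE PGCs (60.7 to 66.0), and Aars had 66.0 (63.4 to 68.7) and 57.6 (56.2 to 59.0). The intervals of Nars and Aars were apart in opposite directions. The assembled locus of Aars was slightly longer in the control library, and the part of this in its values was not tested. Sars, at 56.8 and 55.8, and Wars, at 34.7 and 35.7, had overlapping intervals.

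The secreted and surface proteins of the arm were near the lower end of detection. Stc2, a secreted glycoprotein induced by ER stress, had an RPKM of 0.960 in control (0.661 to 1.26) and 1.65 in Klf9-OE PGCs (1.29 to 2.003), with a ratio of 1.72 with intervals apart. Fgf21, a stress hormone, had 0.398 in control and 0.320 in Klf9-OE PGCs, and the lipoprotein receptor gene Vldlr had 0.249 and 0.282. The intervals of both overlapped.

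In the UPR arm, the abundant chaperones were level between the libraries. Hspa5 (chr2:34772090-34776529) encodes BiP, the main HSP70 of the ER, and had an RPKM of 350.0 in control (336 to 364) and 372 in Klf9-OE PGCs (356 to 388). Hsp90b1 (chr10:86690841-86705444) encodes GRP94, its HSP90 counterpart, and had 505 in control (484 to 527) and 501 in Klf9-OE PGCs (480 to 522). The intervals of both overlapped, and Hsp90b1 had the highest RPKM of all members.

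Creld2, an ER protein induced by stress (chr15:88819646-88826681), was the lowest of the arm by log2 difference, with an RPKM of 116 in control (110 to 123) and 92.2 in Klf9-OE PGCs (87.3 to 97.1), 1.26-fold lower. Xbp1 (chr11:5520641-5525993) was 1.26-fold higher, with 17.1 in control (15.8 to 18.3) and 21.6 in Klf9-OE PGCs (20.1 to 23.0). The intervals of both were apart, and for each of them 28.0% of all genes had a log2 difference at least as far from 0. The files give 1 value per gene, so spliced and unspliced Xbp1 were not separated.

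The remaining genes of the arm had overlapping intervals. Dnajb9, an ER co-chaperone and well-known XBP1 target, had an RPKM of 20.9 in control and 21.3 in Klf9-OE PGCs. Herpud1, a component of ER-associated degradation, had 6.57 and 6.21, and Sdf2l1, a partner of BiP, had 15.1 and 14.8. The sensor gene Eif2ak3 had 8.81 in control (8.15 to 9.47) and 8.79 in Klf9-OE PGCs (8.30 to 9.29). The joint row Mir704,Pdia4, which holds a disulphide isomerase of the ER, had 107 in control (101 to 112) and 99.5 in Klf9-OE PGCs. Its interval in Klf9-OE PGCs ran from 0 to 226, so it could not be placed.

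Genes with promoter letters in common were then set side by side. The log2 differences of 6 ISR genes with CARE letters and a mean RPKM of at least 1 ran from -0.43 (Slc7a11) to 1.01 (Atf3), with a median of -0.16. Those of the 14 ISR genes with a promoter without these letters ran from -1.04 (Ddit4) to 0.72 (Stc2), with a median of 0.11. Both sets are small, and the difference between their medians was not tested. Trib3 carried CARE letters only after the start site. Over all genes with a mean RPKM of at least 1, the median log2 difference was -0.06 for 231 genes with CARE letters (quartiles -0.29 and 0.16) and -0.03 for 8768 without. The 3 genes with ERSE letters, shown above, were level (Hspa5 and Hsp90b1) or lower (Creld2).

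Genes of the same pathways outside the 41 were listed by function, with earlier results of these data known. Of 130 found, 126 had a mean RPKM of at least 1. Of these, 3 (2.38%) were past 1.5-fold with the higher value in Klf9-OE PGCs, against 6.67% of all genes, and 8 (6.35%) with the lower, against 7.79%. The 3 higher genes include Syvn1, which was listed at 0 in control, and such a 0 can be a failed estimate. The median log2 difference of the 126 genes was -0.03, equal to that of all genes. Most of the lower genes belonged to the list of other genes linked to Atf4, where 6 of 23 (26.1%) were past 1.5-fold on the lower side, against 7.79% of all genes, and 1 on the higher side, against 6.67%, and the quartiles were -0.57 and 0.19.

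The lower genes of this list included both transporters and factors. Slc43a1, a transporter of large neutral amino acids, had an RPKM of 16.5 in control (15.4 to 17.7) and 7.99 in Klf9-OE PGCs (7.31 to 8.67), 2.07-fold lower. Slc1a4, a transporter of serine and other small neutral amino acids, had 18.0 in control (16.9 to 19.0) and 10.4 in Klf9-OE PGCs (9.86 to 11.0), 1.72-fold lower. Nupr1, a stress-induced chromatin protein, had 24.96 (22.0 to 27.9) and 16.4 (14.2 to 18.5), 1.53-fold lower and so close to the cutoff. The intervals of all of them were apart.

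The others were low in both libraries. The mitochondrial folate enzyme gene Aldh1l2 had an RPKM of 1.46 in control and 0.920 in Klf9-OE PGCs, the AP-1 partner gene Jdp2 had 1.39 and 0.615, and Cebpa had 1.66 and 1.08, each with intervals apart. Gdf15, a secreted stress signal, was the gene that was higher, at 1.36 in control (0.885 to 1.84) and 2.23 in Klf9-OE PGCs (1.67 to 2.79), with overlapping intervals.

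**Figure D4:**
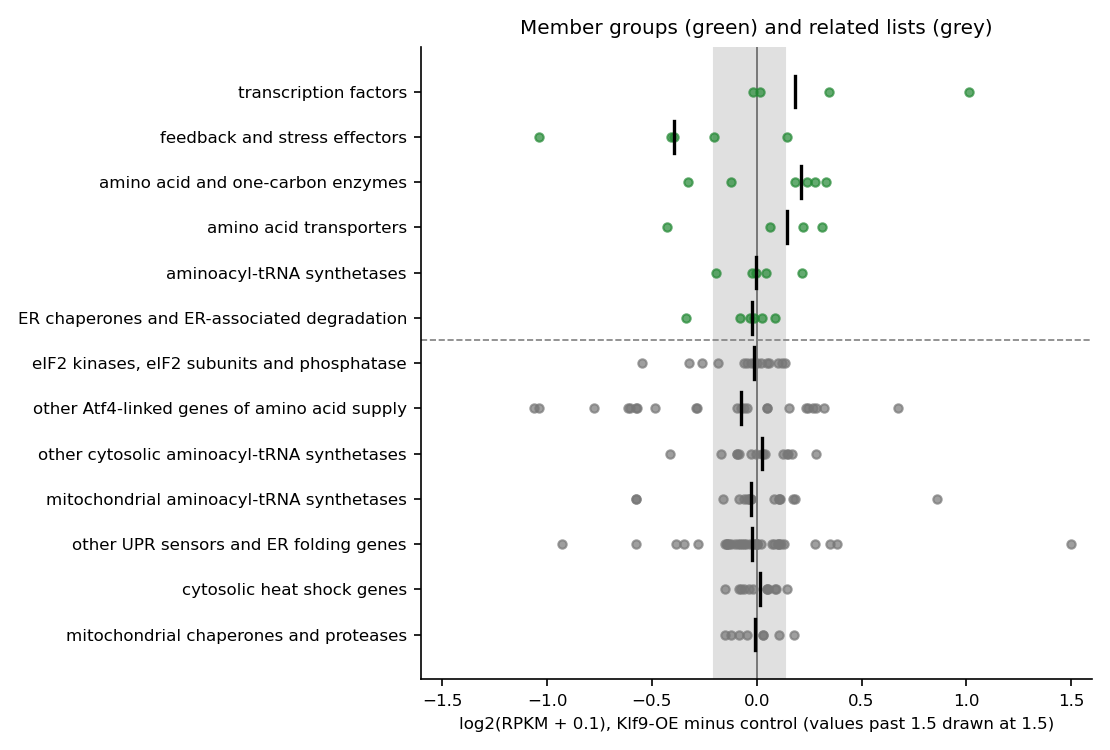
Log2 difference of each gene with a mean RPKM of at least 1 (dots) and the median (black bar) for 6 member groups (green) and 7 lists outside the 41 (grey), with values past 1.5 drawn at 1.5 and the middle 50% of all genes as a grey band. The bar of the feedback and stress effectors lies at -0.39, left of the band, and the list of other Atf4-linked genes is spread to the left.

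The kinases, subunits and exchange factors of eIF2 found under their own symbols had a median log2 difference of -0.01 over 15 genes. None of the 15 was past 1.5-fold, against 6.67% higher and 7.79% lower of all genes. The kinase gene Eif2ak2, described below, was not among them. The largest differences were those of Eif2b1, a subunit of the exchange factor eIF2B, at 42.6 in control (38.8 to 46.4) and 29.1 in Klf9-OE PGCs (27.7 to 30.5), and of Ppp1cc, a phosphatase subunit, at 157 and 126, both with intervals apart. Eif2ak2, which encodes the RNA-activated eIF2 kinase PKR, was present only in a joint row with Gm6548. That row had an RPKM of 135 in control (129 to 142) and 65.7 in Klf9-OE PGCs (62.5 to 69.0), and was singled out after its values were seen.

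Other ER genes resembled the UPR arm. Of 36 sensors and folding genes, 1 was past 1.5-fold in each direction (2.78% each), against 6.67% higher and 7.79% lower of all genes, and their median log2 difference was -0.02. Ero1l, the oxidase that supplies disulphide bonds in the ER, had an RPKM of 33.0 in control (30.3 to 35.7) and 17.3 in Klf9-OE PGCs (16.6 to 18.0), 1.91-fold lower with intervals apart. The gene counted as higher was Syvn1, the ubiquitin ligase HRD1 of ER-associated degradation. Syvn1 was listed at 0 in control, which can be a failed estimate, and had 8.87 in Klf9-OE PGCs (7.34 to 10.4), so no ratio is given.

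Synthetases and chaperones elsewhere in the cell were level as groups. The median log2 difference was 0.02 over 15 other cytosolic aminoacyl-tRNA synthetases, with Yars the lowest at -0.41 and Tars the highest at 0.28. It was -0.03 over 17 mitochondrial synthetases, of which Lars2 was higher, at an RPKM of 144 in control and 261 in Klf9-OE PGCs, and Pars2 lower, at 7.34 and 4.89. It was 0.02 over 12 cytosolic heat shock genes, where Hspa8 had 1919 in control and 2120 in Klf9-OE PGCs and Stip1 had 338 and 304. It was -0.01 over 8 mitochondrial chaperones and proteases, where Hspd1 had 230.2 and 260.5 and Clpx had 24.5 and 22.0.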

How the data were processed

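Total RNA of each culture was made into TruSeq libraries without strand information and sequenced as 51-mer single-end reads. According to the study's methods and the labels, the authors aligned to mm10 with RefSeq genes using TopHat2 and Bowtie, and deposited FPKM values from Cufflinks with 95% bounds, called RPKM here since reads were single-end. Tool versions are not given in the sources used here. Transcripts were assembled in each library separately, so the bounds of 6 members differed between the files. No read totals were used, and depth can be estimated only through the intervals. Reads in the overlap of Ppp1r15a with Tulp2, Shmt2 with Ndufa4l2, Ddit3 with Mars or Atf5 with Nup62 cannot be told apart without strand.

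Values were used as deposited, with rows of 1 symbol summed. Calls were a ratio of at least 1.5 among genes with a mean RPKM of at least 1, and intervals that do not overlap. The members and lists were chosen with earlier results of these data known. The text names all members, for each other pathway list the genes past 1.5-fold or otherwise the 2 with the largest difference, and the highest gene of each marker list. Alternatives were other pseudocounts, minimum levels, fold thresholds, scalings and interval widths. The steps were tested on simulated data. Calculations used Python 3.11.15, numpy 2.4.6, pandas 2.3.3 and matplotlib 3.10.9.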

Additional observations from a re-analysis of the deposited data

Results flagged for a closer look

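Ddit3 entered no comparison because it was listed at 0 in both libraries, but unnamed loci inside its bounds had signal. The highest of 3 such loci in control PGCs had an RPKM of 1.89, and the highest of 5 in Klf9-OE PGCs had 54.5 (95% interval 22.9 to 86.1), above the control level. By the estimate from the intervals, 11.0 reads lay behind the former and 11.9 behind the latter, if the intervals reflect read counting alone. The latter is a short locus, and a short locus gives a high RPKM from few reads. The latter spans chr10:127293934-127294069 and overlaps an annotated exon of Ddit3. Loci were assembled separately in each library and their bounds differ, so this difference was not tested.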

How the results depend on the processing

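No paired analysis was possible because each condition had 1 library, and no library could be left out. None of the 37 members above 0 that were compared under other pseudocounts, scalings or row choices changed sign, except 6 with log2 differences of up to 0.03 in size. The log2 difference of Slc7a3 was 1.41 with a pseudocount of 0.1 and 0.71 with 1. Scaling moved the median of all genes by at most 0.06. The arm medians ran from 0.03 to 0.12 (ISR) and from -0.01 to 0.05 (UPR).

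Counts of genes past the fold moved as follows, where the lowest cutoff is a ratio 25% above an equal level or its inverse. For higher ISR genes, 2 became 4 without a minimum, 0 with a mean RPKM of at least 5, 1 at 2-fold and 4 at the lowest cutoff. For lower ISR genes, 1 became 5 at the lowest cutoff. For the UPR arm, 0 became 1 in each direction at the lowest cutoff. For the lists outside the 41, the 3 higher genes became 1 with a mean of at least 5, 1 at 2-fold and 6 at the lowest cutoff, and the 8 lower genes became 5 when rescaled to the same sum, 5 with a mean of at least 5, 2 at 2-fold and 17 at the lowest cutoff. With half-widths of both libraries multiplied by 2, intervals apart went from 7 to 1 for higher and from 8 to 2 for lower ISR genes and from 1 to 0 for higher UPR genes. These changes follow from the settings themselves. Of all genes with a mean RPKM of at least 5, 3.99% were past 1.5-fold higher and 5.6% lower. For the other settings in this paragraph the share of all genes is not given, so those counts are not read as results about the members.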
